A study of Homo sapiens with 36 samples.

Results

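Human neurons labelled RAI1 Knockout were compared with neurons labelled RAI1 Het on day 7 of induction, with 4 libraries of each, without any wild-type library in the fit. These 8 libraries were picked by genotype and time label out of the 36 in the series, which covers WT, RAI1+/− and RAI1−/− cells at days 0, 3 and 7 with 4 libraries in each of 9 groups. All lines derive from the H9 human embryonic stem cell line, were kept on Geltrex in mTeSR Plus, and were turned into induced neurons (iNeurons) by doxycycline-driven NGN2 expression in Neurobasal-A with GlutaMAX, B27, GDNF, NT3 and CultureOne. Below, HET stands for RAI1+/− and KO for RAI1−/−, and WT values are given only to place the levels. The labels call the 4 libraries of a group biological replicates. How many independently edited clones stand behind each genotype is not given in the sources used here, so a difference between KO and HET can be a difference between lines as well as between RAI1 doses, and these cannot be told apart. The p-values measure the spread among these libraries.

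RAI1 encodes a nuclear protein that binds nucleosomes and regulates transcription, and loss of 1 copy causes Smith-Magenis syndrome, a neurodevelopmental disorder. The comparison asks what differs between neurons with 1 edited RAI1 allele and neurons with both alleles edited. Forced expression of NGN2, a proneural transcription factor, drives stem cells into neurons that are mostly excitatory, passing quickly from the stem cell program through a short progenitor-like phase. Total RNA depleted of ribosomal RNA was sequenced, and the levels below are CPM, a gene's count relative to the library's total, from the authors' gene counts and scaled by the trimmed mean of M-values (TMM). CPM values are not divided by gene length, so they are compared between libraries and not between genes.

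The 8 libraries held 25774236 to 49503182 counts. A set of 5 small structural RNAs (the 7SL RNAs RN7SL1 and RN7SL2, the 7SK RNA, and the RNase P and MRP RNAs) took 2.84 to 27.5% of the counts in HET and 9.9 to 15.8% in KO. HET replicate 1 had the highest share and stood apart, with log2 CPM correlations across genes of 0.938 to 0.952 with the other HET libraries, where all other pairs within a group lay between 0.98 and 0.995. Main results are therefore also given without it. The neuronal label held: the summed level of 12 neuron markers was 15200 to 20200 CPM in HET and 17300 to 23200 CPM in KO. Of the stem cell markers, POU5F1, NANOG, ZFP42, TDGF1 and L1TD1 were at or near 0 in both groups, with no group mean above 0.151 CPM. LIN28A was still read at a mean of 102 CPM in HET and 253 CPM in KO, with an adjusted p of 0.0623 by edgeR's quasi-likelihood test with Benjamini-Hochberg adjustment, and of 0.00938 without HET replicate 1. DPPA4 was at 15.6 and 6.76 CPM (adjusted p = 0.248 by edgeR) and PRDM14 at 13.8 and 8.92 CPM (adjusted p = 0.446). In bulk libraries fewer cells of a type and less RNA per cell cannot be told apart.

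RAI1 itself was read in all 8 libraries. Its level was 76.0, 80.0, 86.5 and 49.7 CPM in HET and 89.6, 100, 93.8 and 63.3 CPM in KO, and the 2 groups overlapped. The mean was 73.1 ± 16.2 CPM in HET and 86.7 ± 16.2 CPM in KO (SD, n = 4 each; exact two-sided permutation test over 70 splits, p = 0.286, where 0.0286 is the smallest value possible). In edgeR's quasi-likelihood fit the log2 difference, KO minus HET, was 0.19 ± 0.20 (SE; Benjamini-Hochberg adjusted p = 0.709). Counts summed over the gene (chr17:17681473-17811453, GRCh38) do not show the edit, so they do not check the labels, and the libraries are taken as labelled. TCF20, PHF14 and HMG20B, published partners of RAI1, were not called either, with log2 differences of 0.25, -0.23 and -0.75. HMG20B was at 49.9, 18.4, 15.1 and 25.4 CPM in HET and 11.6, 17, 17.1 and 21.4 CPM in KO. Of 23 tested neighbours of RAI1 in 17p11.2, none was called, and their median log2 difference was -0.03. An unadjusted p under 0.05 was found for 2 of these 23, against 2782 of all 20406 genes tested.

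KO and HET neurons differed in 180 of 20406 genes tested (0.882%), 96 higher in KO (0.47%) and 84 lower (0.412%), by edgeR's quasi-likelihood test at a Benjamini-Hochberg adjusted p under 0.05. Such genes are called below. In all 180 the 4 KO libraries lay entirely above or entirely below the 4 HET libraries, an arrangement found in 5.02% of all tested genes with KO above and 3.74% with KO below. Of the 180 differences, 52 exceeded 3 on the log2 scale in absolute value and 17 were below 1, while the median over all tested genes was -0.03. An unadjusted p under 0.05 was reached by 2782 genes. Without HET replicate 1 the test called 428 of 20892 genes (2.05%), 234 higher (1.12%) and 194 lower (0.929%), and 178 of the 180 were among them. The count depended on each other library too: it was 75 without HET replicate 2, 302 without HET replicate 3, 70 without HET replicate 4, and 84, 60, 58 and 114 without KO replicates 1, 2, 3 and 4. Of the 180 genes, 52 stayed called whichever library was left out. For a named gene that lost its call in this way, the highest adjusted p and the library left out for it follow its values. The split by direction depended on the fit. Of the 180 genes 53.3% were higher in KO, against 36.8% of those called with all 36 libraries, 71.7% without KO replicate 2 and 72.4% without KO replicate 3. With test and unit both replaced, by limma on log2(TPM + 1), 45 genes were called, of which 33.3% were higher, and the median over all genes was -0.24. In the plot of fold change against level, the called genes with the largest differences lie at low and middle levels.

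**Figure D1:**
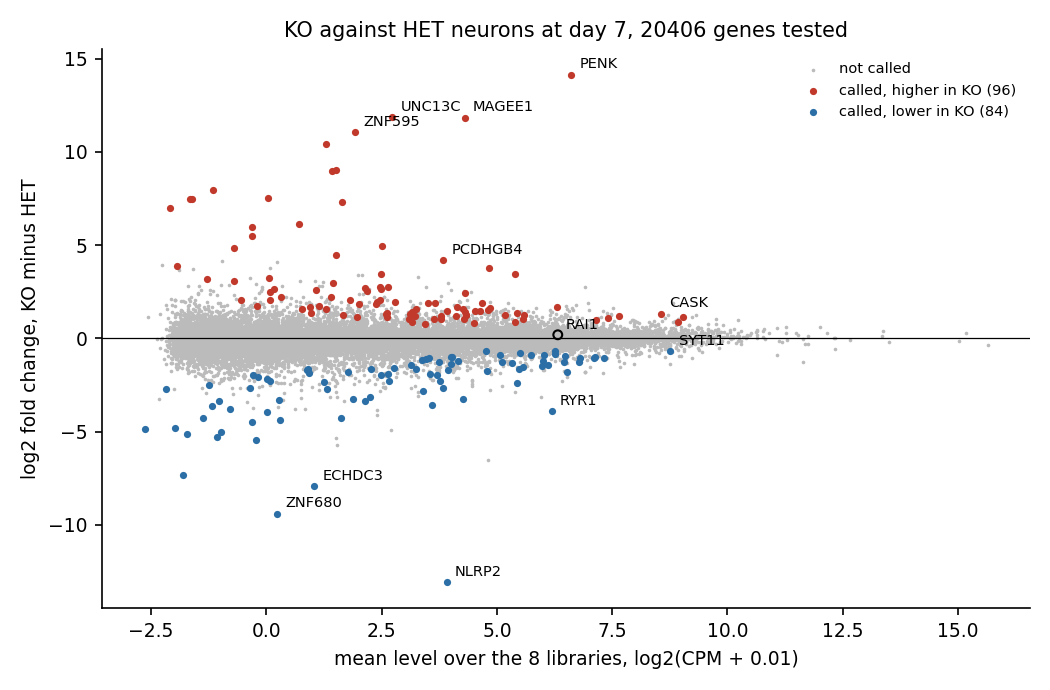
Each point is a gene tested in KO against HET neurons at day 7, with its mean level over the 8 libraries as log2(CPM + 0.01) on the x axis and the log2 fold change on the y axis. Red points are the 96 genes called higher in KO, blue points the 84 called lower, grey points were not called and RAI1 is ringed near 0. PENK, UNC13C, MAGEE1 and NLRP2 lie far from the body of the data.

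The largest differences were genes read in one genotype and nearly or wholly unread in the other. In 21 of the called genes one group held at most 3 counts over its 4 libraries: 13 were near 0 in HET and 8 in KO. As examples, the 250 bases before the annotated start are printed for MAGEE1, CCDC169, ZNF595 and ZNF680, 4 genes that were read at every stage in one genotype and had at most 1 count at any stage in the other. The sequences are from RefSeq (GRCh38.p14), written in the direction of the gene with each CG dinucleotide in capitals. The positions are chrX:76427460-76427709 on the plus strand, chr13:36297815-36298064 on the minus strand, chr4:53071-53320 on the plus strand and chr7:64563072-64563321 on the minus strand, in that order.
MAGEE1: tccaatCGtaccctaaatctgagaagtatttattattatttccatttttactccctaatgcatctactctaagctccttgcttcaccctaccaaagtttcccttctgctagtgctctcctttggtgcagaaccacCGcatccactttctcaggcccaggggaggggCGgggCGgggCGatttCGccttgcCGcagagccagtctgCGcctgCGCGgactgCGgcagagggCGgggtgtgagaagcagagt
CCDC169: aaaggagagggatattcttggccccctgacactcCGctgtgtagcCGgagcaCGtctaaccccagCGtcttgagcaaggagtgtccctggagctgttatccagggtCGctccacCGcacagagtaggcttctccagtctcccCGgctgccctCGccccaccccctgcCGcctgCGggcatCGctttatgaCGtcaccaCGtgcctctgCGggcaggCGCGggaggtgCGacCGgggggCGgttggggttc
ZNF595: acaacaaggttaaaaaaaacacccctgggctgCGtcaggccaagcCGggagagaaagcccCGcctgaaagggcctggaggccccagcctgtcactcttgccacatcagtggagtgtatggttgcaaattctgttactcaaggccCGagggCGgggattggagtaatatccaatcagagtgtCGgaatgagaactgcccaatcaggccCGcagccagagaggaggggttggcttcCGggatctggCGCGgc
ZNF680: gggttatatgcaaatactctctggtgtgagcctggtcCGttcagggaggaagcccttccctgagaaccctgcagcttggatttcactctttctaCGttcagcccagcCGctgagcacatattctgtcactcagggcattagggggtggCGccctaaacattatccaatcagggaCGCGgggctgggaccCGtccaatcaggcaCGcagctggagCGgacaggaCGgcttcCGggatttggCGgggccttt
They hold 12, 19, 10 and 12 CG dinucleotides, where the median over 35116 such RefSeq windows is 11. At least as many are found in 48.5%, 34.6%, 52.2% and 48.5% of those windows, so none of the 4 stands apart from the rest in this count. The motif searched was CG, which reads the same on both strands. No methylation was measured in the data used here.

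MAGEE1, an X-linked member of the MAGE family of ubiquitin ligase partners (chrX:76427724-76431353), was at 41.1, 41.4, 42.7 and 32.2 CPM in KO and at 0, 0, 0.0247 and 0 CPM in HET, where it had 1 count in all. The ratio of the summed counts, scaled to the library totals, was 5610 (95% interval 1010 to 222000, counting error only), and edgeR's adjusted p was 2.27e-06. It held 5713 counts in KO at day 7, 1295 at day 3 and 1470 at day 0, and none in HET or WT at the earlier days. WT neurons at day 7 also held none. ZNF595, a zinc finger protein gene near the end of chromosome 4 (chr4:53285-88211), had no count in HET and 8.04, 8.57, 7.61 and 6.05 CPM in KO. Measured against 3 counts per library it was at least 86.2-fold higher in KO (adjusted p = 0.000514). WT libraries read it at 3.59 to 8.47 CPM, so here the HET line is the one without reads, at all 3 days.

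NLRP2, a member of the NLR family of innate immune proteins (chr19:54953130-55001142), showed the reverse. Its level was 24.9, 32.3, 35.6 and 27.2 CPM in HET, 0 in every KO library and 19.7 to 37.6 CPM in WT. The difference was at least 358-fold against 3 counts per library (adjusted p = 9.44e-05), and KO cells held 1 count at day 0 where HET held 10541. NLRP2 has a close paralog, NLRP7, and reads shared between them may have been split by the authors' counting. ZNF680, another zinc finger gene, was at 3.34, 1.94, 1.78 and 2.22 CPM in HET and at 0 in KO (at least 27.7-fold lower, adjusted p = 0.00335). CCDC169, a coiled-coil protein gene, was at 5.90, 3.4, 4.27 and 6.05 CPM in KO and at 0 in HET (at least 55.9-fold higher, adjusted p = 0.00187). ECHDC3 was read in HET at 8.50, 2.03, 1.98 and 3.84 CPM and gave 2 counts over the KO libraries, and its call was lost without KO replicate 2 (adjusted p = 0.0527). ZNF680, CCDC169 and ECHDC3 were picked after their values were seen.

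PENK and UNC13C had few counts in KO at the earlier days, but the change of their KO minus HET difference with time was not called (interaction adjusted p = 1 against day 0 and against day 3, by edgeR). HET held at most 1 count of either gene on each day, so this test cannot decide whether the difference changed. PENK, which encodes the precursor of the enkephalin opioid peptides, was at 178, 127, 203 and 272 CPM in the KO libraries and at 0, 0.0270, 0 and 0 CPM in HET. That was 27608 counts against 1, a ratio of 27100 (95% interval 4870 to 1070000; adjusted p = 4.06e-06). KO cells held 14 PENK counts at day 0 and 34 at day 3 over their 4 libraries, and WT cells none at any day. Its antisense neighbour PENK-AS1 was also called, at 6, 4.23, 6.05 and 8.58 CPM in KO against at most 0.108 CPM in HET (adjusted p = 0.00187). The 2 genes overlap, and since use of strand in the counting is not given in the sources used here, their reads cannot be told apart. UNC13C, a member of the UNC13 family that primes synaptic vesicles for release (chr15:53978201-54633414), was at 8.71, 20.8, 11.6 and 12 CPM in KO and 0 in HET (at least 151-fold higher, adjusted p = 0.00168). It gave 7 counts in KO at day 0 and 3 at day 3. The noncoding LINC00645 was at 8.22, 6.26, 4.27 and 4.05 CPM in KO with 1 count in HET, a count ratio of 822 (95% interval 147 to 32500; adjusted p = 0.00024). MAGEE1, ZNF595, NLRP2, ZNF680, CCDC169, PENK, PENK-AS1, UNC13C and LINC00645 stayed called whichever of the 8 libraries was left out.

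**Figure D2:**
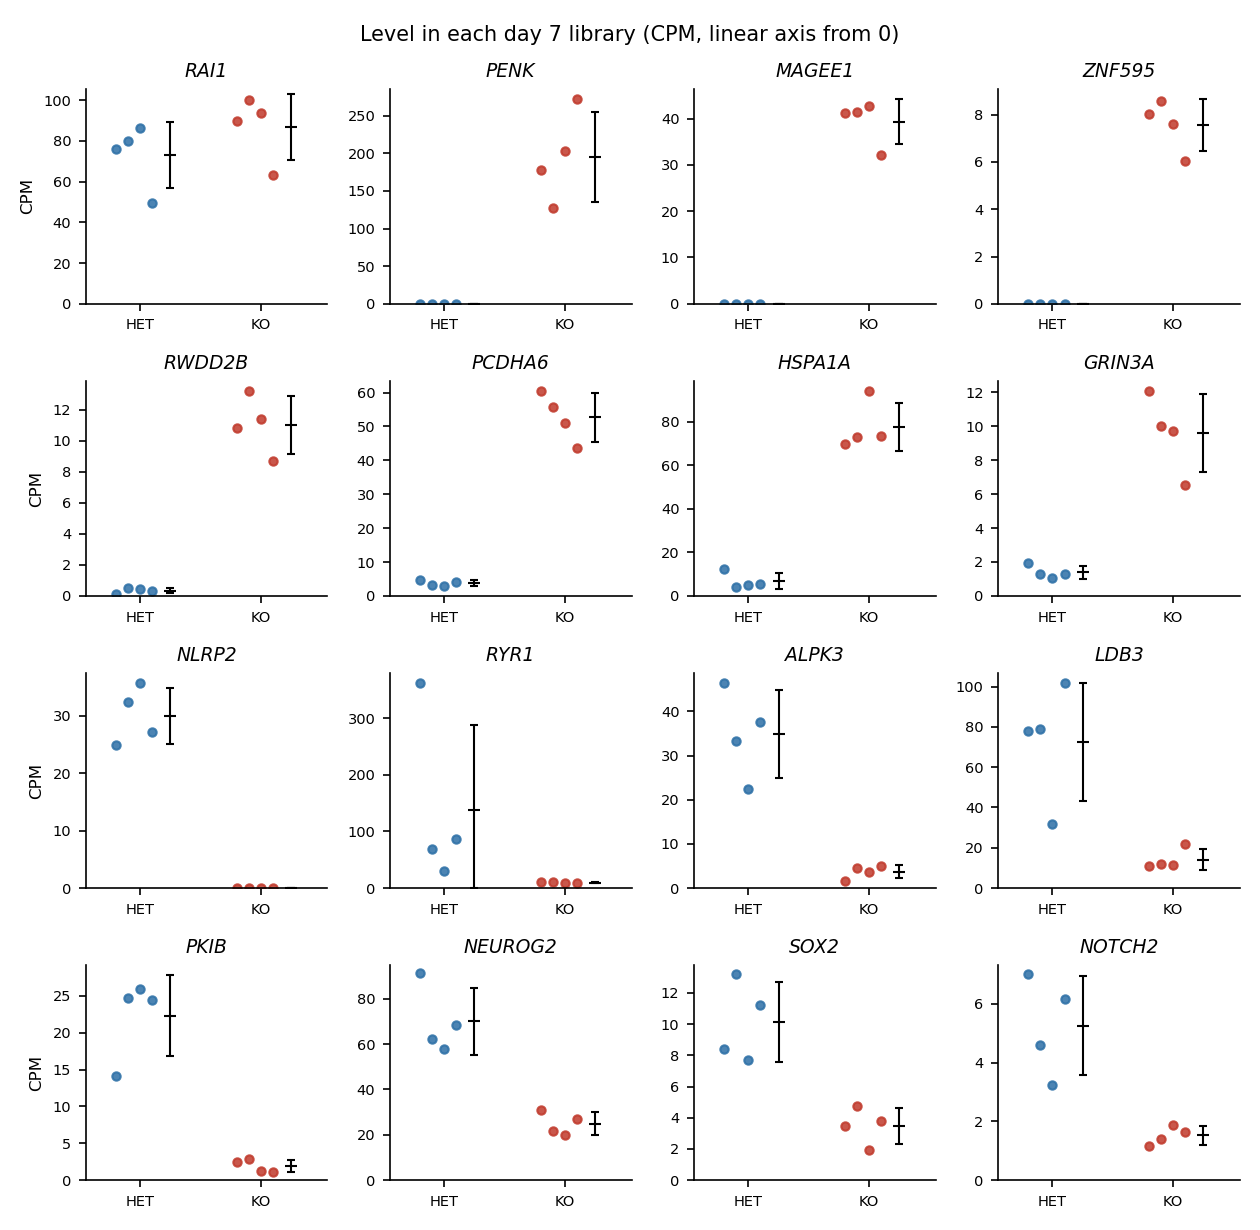
Level of 16 genes in each day 7 library, in CPM on linear axes that start at 0, with HET in blue and KO in red in replicate order and the mean ± SD (n = 4) beside each group. RAI1 overlaps between the groups and the other 15 genes do not; the lower bar of RYR1 in HET is cut at 0 because its SD exceeds its mean, owing to 361 CPM in HET replicate 1.

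RWDD2B, a chromosome 21 gene, rose from 0.103, 0.513, 0.421 and 0.316 CPM in HET to 10.8, 13.2, 11.4 and 8.70 CPM in KO (log2 difference 4.96 ± 0.41 SE, adjusted p = 0.000974). The clustered protocadherins, homophilic adhesion proteins whose isoforms mark individual neurons, gave 5 called genes, all higher: PCDHA6, PCDHA11, PCDHA3, PCDHB16 and PCDHGB4. PCDHA6 was at 4.72, 3.24, 3.02 and 4.11 CPM in HET and 60.5, 55.6, 51.0 and 43.7 CPM in KO (3.75 ± 0.20, adjusted p = 5.25e-05), with all KO libraries far above HET. PCDHGB4 was at 0.924, 1.3, 1.26 and 2.22 CPM in HET and 51.4, 21.3, 22.6 and 12.4 CPM in KO, so that its KO libraries varied widely but stayed above HET (4.20 ± 0.48, adjusted p = 0.0045). The clusters did not move as wholes, with medians of 0.36, -0.02 and -0.24 for alpha, beta and gamma. Called were 3 of 16 tested alpha, 1 of 15 beta and 1 of 22 gamma members, against 0.882% of all genes tested. The alpha cluster had 6 called members without HET replicate 1, with PCDHAC1 and PCDHA10 added as higher and PCDHA12 as lower (adjusted p = 0.00461). Isoforms of a cluster share 3' exons, so their gene-level counts may be split between them, and the members other than PCDHA6 and PCDHGB4 were picked after their values were seen.

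GRIN3A, an NMDA receptor subunit, was at 1.95, 1.27, 1.04 and 1.27 CPM in HET and 12.1, 10.0, 9.73 and 6.55 CPM in KO. The KO libraries were all higher (2.74 ± 0.28, adjusted p = 0.00265). It was the only called member of 28 tested glutamate and GABA receptor genes, whose median log2 difference was 0.50 with 24 of 28 positive. Without HET replicate 1, GRIA4 and GRIN1 were called higher too, and the median was 0.53. GRIK1, the kainate receptor subunit with the largest difference in that list, was at 30.1 CPM in HET and 210 CPM in KO but varied from 4.15 to 75.2 and from 73.4 to 281 CPM (adjusted p = 0.207). LRRTM3, a postsynaptic adhesion protein, was at 0.847, 1.24, 1.95 and 0.435 CPM in HET and 14.2, 4.6, 6.31 and 5.83 CPM in KO (2.72 ± 0.51, adjusted p = 0.0473). Its call did not outlast leaving out HET replicate 1 (adjusted p = 0.0508), nor 6 of the other 7 libraries, with up to 0.132 without KO replicate 3. NLGN4X, an X-linked neuroligin of the postsynaptic side, rose from 22.9, 43.2, 49.4 and 30.7 CPM in HET to 122, 137, 131 and 100 CPM in KO (1.69 ± 0.23, adjusted p = 0.0119; up to 0.0566, without KO replicate 3). It was 1 of 20 postsynaptic genes called (median 0.38), and SYT11, a synaptotagmin and the only one of 26 presynaptic genes called (median 0.13), was lower in KO. The postsynaptic calls were 3 without HET replicate 1, with CAMK2B and HOMER2 added. These 2 lists do not hold every synaptic gene. On neither of them are UNC13C, LRRTM3, CASK (below) and DLGAP2 (adjusted p = 0.0231; up to 0.0963, without KO replicate 3), all called higher in KO, or SLITRK5 (below), called lower.

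HSPA1A, an inducible HSP70 chaperone, was at 12.4, 4.29, 4.97 and 5.38 CPM in HET and 69.7, 72.9, 94.1 and 73.5 CPM in KO (3.47 ± 0.35, adjusted p = 0.00248). HSPA1L beside it was higher as well (2.52 ± 0.29). HSPA1A is nearly identical to HSPA1B, so its level is uncertain. CTHRC1, a secreted collagen triple helix repeat protein, was at 0.103, 0.297, 0.173 and 0.396 CPM in HET and 2.95, 4.03, 3.79 and 11 CPM in KO (4.49 ± 0.59, adjusted p = 0.00962). It was the only one called of 25 listed extracellular matrix genes tested, whose median was -0.24 with 7 of 25 positive. Without HET replicate 1, SPARC was called too, lower in KO. That list does not hold every matrix gene. Not on it and called lower were LAMB2 (below), COL26A1 (adjusted p = 0.0339; up to 0.174, without KO replicate 3) and COL27A1 (adjusted p = 0.0473; up to 0.208, without KO replicate 3). ZNF283 was at 1.98, 1.94, 1.56 and 0.712 CPM in HET and 12.5, 10.4, 9.67 and 10.6 CPM in KO (2.74 ± 0.31, adjusted p = 0.0045). Of 550 genes with a ZNF symbol, 6 were called (1.09%, near the 0.882% over all genes tested), 5 higher and 1 lower, with a median of 0.05. Without HET replicate 1 there were 20, of which 15 were higher, where 2.05% of all genes tested were called. The ZNF symbols were counted after their values were seen.

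ADCYAP1 encodes the neuropeptide PACAP, and its level was 22.8, 25.9, 22.8 and 23.2 CPM in HET and 52.8, 70.3, 62.6 and 67.0 CPM in KO (1.37 ± 0.13, adjusted p = 0.00197). It overlaps a called gene without a symbol that moved the same way. PENK and ADCYAP1 were the called members of 14 neuropeptide genes tested, whose median was 0.29. The adhesion molecule CHL1 rose from 3.44, 7.02, 9.52 and 4.03 CPM to 50.0, 33.0, 32.2 and 18.5 CPM (2.42 ± 0.39, adjusted p = 0.0234; up to 0.0877, without KO replicate 3). UCHL1, an abundant neuronal ubiquitin hydrolase, was at 317, 317, 422 and 307 CPM in HET and 655, 723, 609 and 562 CPM in KO (0.85 ± 0.15, adjusted p = 0.0413; up to 0.161, without KO replicate 2). RTL1, an imprinted retrotransposon-derived gene, was at most 0.297 CPM in HET and 1.06 to 2.63 CPM in KO (3.26 ± 0.51, adjusted p = 0.0218; up to 0.0877, without KO replicate 3). The imprinted MEST fell from 101, 87.1, 94.9 and 104 CPM to 46.2, 64.2, 63.5 and 53.8 CPM (-0.82 ± 0.14, adjusted p = 0.0305; up to 0.113, without KO replicate 3), and 2 of 25 imprinted genes were called in all.

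RYR1, the sarcoplasmic calcium release channel, was at 361, 69.3, 30.9 and 86.5 CPM in HET and at 11, 9.87, 8.31 and 8.64 CPM in KO. All HET libraries lay above KO, but 1 of them was far above the rest (-3.91 ± 0.70, adjusted p = 0.0406). Without HET replicate 1 the difference was -2.75 (adjusted p = 0.00395). ALPK3, a muscle alpha-kinase, was at 46.4, 33.4, 22.4 and 37.6 CPM in HET and 1.64, 4.6, 3.68 and 4.96 CPM in KO (-3.28 ± 0.37, adjusted p = 0.0045). It stayed called whichever library was left out. ASB2, a ubiquitin ligase adaptor, was at 7.19, 6.16, 2.77 and 10.4 CPM in HET and 0.443, 0.545, 0.311 and 1.53 CPM in KO (-3.26 ± 0.58, adjusted p = 0.0388). LDB3, a Z-disc protein, was at 77.9, 78.8, 32.0 and 102 CPM in HET and 10.9, 12.1, 11.5 and 21.7 CPM in KO (-2.42 ± 0.38, adjusted p = 0.0219). ABCC9, a subunit of ATP-sensitive potassium channels, was at 30.1, 27.0, 10.7 and 30.6 CPM in HET and 4.15, 3.48, 1.64 and 6.70 CPM in KO (-2.66 ± 0.47, adjusted p = 0.0363). WT neurons read RYR1 at 288 to 730 CPM, LDB3 at 66.0 to 212 CPM and ABCC9 at 116 to 141 CPM. Leaving out any one of HET replicates 2 and 4 and KO replicates 1, 2 and 3 ended the calls of RYR1, ASB2, LDB3 and ABCC9, with the highest adjusted p at 0.181, 0.165, 0.120 and 0.159.

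Markers of mesenchyme and fibroblasts summed to 9.1 to 42.2 CPM in HET and 6.89 to 9.17 CPM in KO, and none of the 4 tested of 10 was called. COL1A1 was at 12.5 CPM in HET and 0.423 CPM in KO, with HET libraries from 0.396 to 25.9 CPM (adjusted p = 0.101), DCN was at 0 in every HET library, and TWIST1 had a mean of 0.0193 CPM in HET. Neural crest and Schwann cell markers summed to 19.7 to 39 CPM in HET and 14.2 to 31.8 CPM in KO, with 1 of 10 called, SNAI2, at 2.36, 3.32, 2.42 and 3.01 CPM in HET and 0.861, 1.17, 0.877 and 0.592 CPM in KO (-1.71 ± 0.27, adjusted p = 0.022; up to 0.117, without KO replicate 3). The part of such cells in the lower levels of RYR1, ALPK3, ASB2, LDB3 and ABCC9 was not tested.

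GPX8, an endoplasmic reticulum peroxidase, was at 3.57, 8.13, 2.13 and 9.41 CPM in HET and 0.365, 0.468, 0.0283 and 0.374 CPM in KO (-4.26 ± 0.70, adjusted p = 0.027; up to 0.11, without KO replicate 1). PKIB, an inhibitor of protein kinase A, was at 14.1, 24.7, 25.9 and 24.5 CPM in HET and 2.45, 2.81, 1.3 and 1.15 CPM in KO (-3.58 ± 0.34, adjusted p = 0.00187). In WT it was at 0.214 to 0.503 CPM, below both. EHD2, a membrane-shaping ATPase of caveolae, was at 36.1, 10.0, 9.55 and 17.8 CPM in HET and 1.88, 2.52, 3.08 and 3.37 CPM in KO (-2.81 ± 0.46, adjusted p = 0.026; up to 0.117, without KO replicate 2). LAMB2, a laminin chain, was at 26.4, 27.2, 9.62 and 25.8 CPM in HET and 3.08, 3.74, 6.16 and 6.11 CPM in KO (-2.27 ± 0.38, adjusted p = 0.0288; up to 0.128, without KO replicate 2). CNTNAP3, of the contactin-associated adhesion family, was at 6.42, 15, 4.90 and 15.2 CPM in HET and 2.03, 1.97, 1.64 and 3.02 CPM in KO (-2.30 ± 0.42, adjusted p = 0.0419; up to 0.197, without KO replicate 3). With CHL1 it made 2 of 35 contactins and adhesion genes called, 1 in each direction (median 0.43).

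Called were 1 of 15 proneural target genes and 1 of 17 neural progenitor genes, against 0.882% of all genes tested. NEUROG2, which encodes NGN2, was at 91.1, 62.4, 57.9 and 68.4 CPM in HET and 31.1, 21.7, 20.1 and 26.8 CPM in KO (-1.53 ± 0.20, adjusted p = 0.0102; up to 0.0546, without KO replicate 2). All KO libraries were below all HET libraries, and WT was at 47.7 to 95.6 CPM. These counts may hold both the cell's own gene and the induced transgene. At day 3, under doxycycline, NEUROG2 was at 14700 to 19200 CPM in HET and 7550 to 10900 CPM in KO, and at day 0 at 4.77 to 12 CPM and 1.55 to 2.24 CPM. By edgeR the day 3 difference was not called (-0.88 ± 0.23, adjusted p = 0.0889), while the day 0 difference was (-2.07 ± 0.29, adjusted p = 0.0116). The tdTomato reporter listed in the same count table was lower in KO at day 7 as well, at 30.7 ± 9.35 CPM in HET and 9.65 ± 2.33 CPM in KO (ratio 0.314; exact two-sided permutation test, p = 0.0286, the smallest that 70 splits can give). Its ratio was 0.525 at day 0 (exact p = 0.0286) and 0.473 at day 3 (exact p = 0.171). The part of the transgene level in the other results was not tested.

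SOX2, a progenitor and stem cell transcription factor, was at 7.67 to 13.2 CPM in HET and 1.95 to 4.73 CPM in KO (-1.59 ± 0.30, adjusted p = 0.0489; up to 0.179, without KO replicate 1). It was the only call among 17 neural progenitor genes (median -0.43) and among 8 pluripotency genes tested (median -0.11). NOTCH2, a Notch receptor, was at 7.01, 4.59, 3.24 and 6.17 CPM in HET and 1.15, 1.40, 1.89 and 1.65 CPM in KO (-1.83 ± 0.30, adjusted p = 0.0279; up to 0.120, without KO replicate 2), against 46.1 to 76.5 CPM in WT. It was the 1 call of 18 Notch pathway genes, whose median was -0.73 with 3 of 18 positive. Without HET replicate 1 the median was -0.35, and HEY1, a Notch target, was also called, higher in KO (adjusted p = 0.0486). NEUROD1, a direct target of NGN2, had means of 112 and 12.8 CPM and HET libraries from 26.9 to 222 CPM, and it was not called (-3.17 ± 0.61, adjusted p = 0.053), but was without HET replicate 1 (adjusted p = 0.0404). NEUROG2 was the 1 call of 15 proneural target genes, whose median was -0.33, and -0.54 without HET replicate 1. SYT11 was at 481, 566, 512 and 540 CPM in HET and 357, 357, 342 and 311 CPM in KO (-0.67 ± 0.13, adjusted p = 0.0482; up to 0.250, without KO replicate 3).

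In the lists below no gene was called with all 8 libraries. Over all genes tested 0.882% were called, so a list of this size can hold none without standing apart. None was called among 32 potassium channel genes (median 0.24), 25 sodium and calcium channel genes (0.10), 36 axon guidance genes (0.34), 19 sensory and peripheral identity genes (0.50), 17 forebrain identity genes (0.19) or 13 hindbrain and spinal identity genes (-0.16). Likewise none was called among 16 immediate early genes of neuronal activity (median -0.52), 21 proliferation genes (-0.33), 19 p53 targets (-0.34), 23 cholesterol synthesis genes (0.03), 20 circadian clock genes (-0.05) and 13 mitochondrially encoded genes (0.02). Unadjusted p-values under 0.05 were found for 10 of 32 potassium channel genes, 15 of 36 axon guidance genes, 9 of 19 sensory and peripheral identity genes and 3 of 16 immediate early genes. Over all genes tested, 2782 of 20406 had such a value. Without HET replicate 1 the median was -0.06 for the immediate early genes, -0.05 for the proliferation genes, 0.39 for the cholesterol synthesis genes and -0.26 for the mitochondrially encoded genes. KCNK9 of the potassium channels and SCN10A of the sensory genes were then called higher, and EYA2 of the sensory genes and FEZF1 of the forebrain genes lower. None of 26 tested genes on the list of replication-dependent histones was called (median 0.37), and without HET replicate 1 H2AC6, H2BC4, H2BC21 and H2AC8 were called higher in KO and the median was 1.10. That list does not hold every histone gene: H3C6 (adjusted p = 0.00363) and H2BC3 (adjusted p = 0.00187), which are not on it, were called higher in KO with all 8 libraries and whichever library was left out. The lists were drawn up with earlier results of these data known, and their counts and medians are descriptions.

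**Figure D3:**
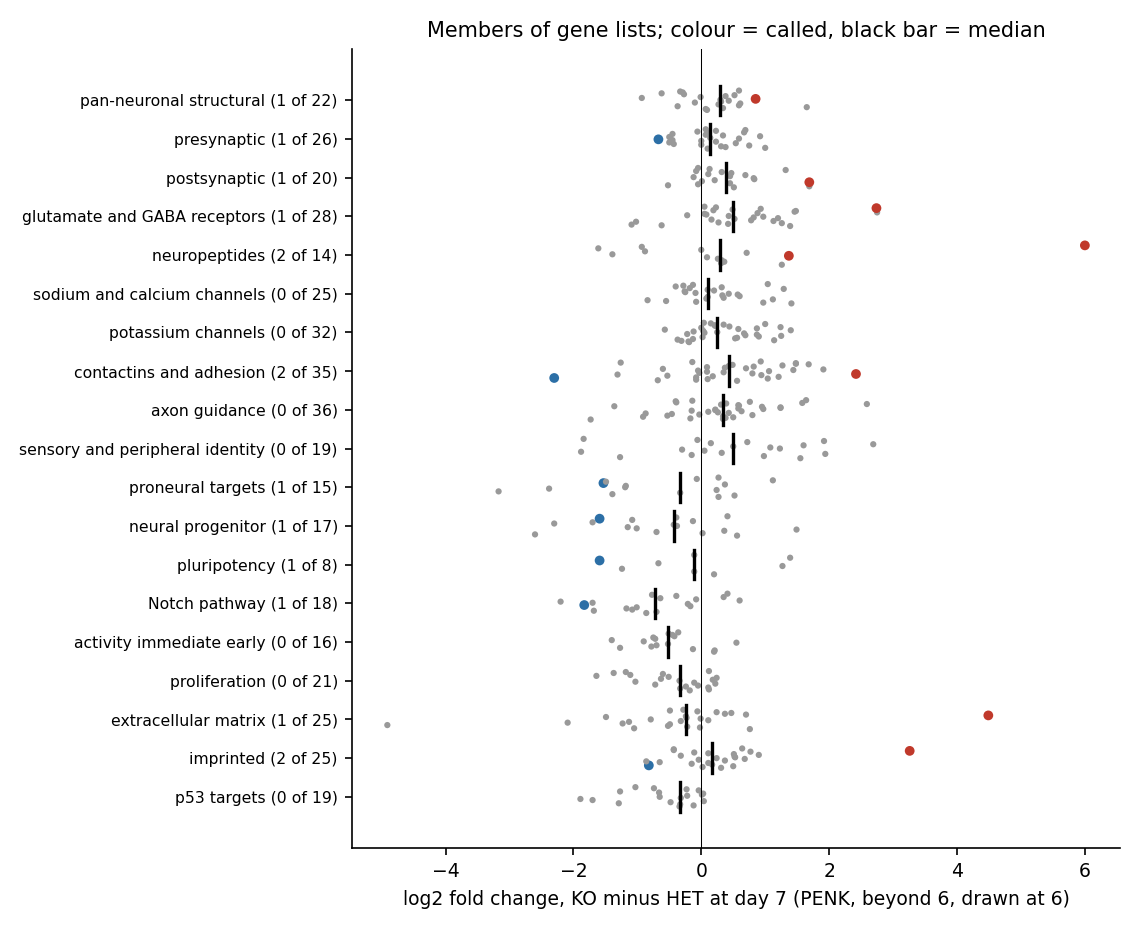
Each point is the log2 fold change, KO minus HET at day 7, of a gene in one of 19 lists, with called genes in red (higher in KO) or blue (lower) and the list's median as a black bar; the label gives the called and tested members. Most lists hold 0, 1 or 2 called genes, and PENK, beyond the axis, is drawn at 6.

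Called genes were unevenly spread over the chromosomes, an observation made after the values were seen. On the X chromosome 30 of 667 tested genes were called (4.5%), 16 higher and 14 lower in KO, against 143 of 18626 on the autosomes (0.768%). The share on the X was 7.62% (52 of 682) without HET replicate 1. The number called there was 9, 31 and 8 without HET replicates 2, 3 and 4, and 10, 6, 6 and 13 without KO replicates 1, 2, 3 and 4. With limma on log2(TPM + 1) it was only 1 of the 45 genes called. It was 6 of 72 with a test against a fold of 1.5 and 12 of 117 with replicate number as a block. DESeq2's Wald test gave 78 of 876 and all 36 libraries 77 of 951. With the small structural RNA share in the fit, 114 of 1947 were on the X. In the separate libraries of day 0 and day 3 the share on the X was 6.54% (42 of 642) and 6.7% (44 of 657). Of the 30 genes 22 were called in the same direction at day 0 and 16 at day 3. The X-linked differences were also of a more uniform size, with 21 of 30 between 0.8 and 1.5 on the log2 scale against 40 of 143 autosomal ones, and with a median absolute value of 1.24 against 2.06.

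Higher in KO on the X were MID1 and MID2 (microtubule-binding ubiquitin ligases), CASK (a synaptic scaffold), NLGN4X, BCOR (a Polycomb corepressor), TBL1X, SLC25A14, MORF4L2, RAB9A, PUDP, PRRG1, PTCHD1, SLITRK4, TCEAL3, CENPVL3 and MAGEE1. CASK was at 120, 249, 264 and 200 CPM in HET and 518, 647, 549 and 456 CPM in KO (1.33 ± 0.24, adjusted p = 0.0407; up to 0.154, without KO replicate 3). MORF4L2, a chromatin protein of the NuA4 complex, was at 283, 334, 320 and 334 CPM in HET and 755, 776, 699 and 685 CPM in KO (1.15 ± 0.13, adjusted p = 0.0045). Its groups were tight and far apart. Lower were STAG2 (a cohesin subunit), XIAP (a caspase inhibitor), OTUD5 (a deubiquitinase), TFE3 (a transcription factor of lysosomal genes), PHF6, MMGT1, CSTF2, MTM1, MAP7D3, RENBP, TCEAL8, RANP4 and a pair without a symbol. STAG2 was at 123, 167, 156 and 168 CPM in HET and 69.8, 68.5, 58.6 and 65.0 CPM in KO (-1.27 ± 0.14, adjusted p = 0.00386), with WT at 65.7 to 127 CPM. Every KO library was below every HET library. At day 0 STAG2 was at 396 to 456 CPM in HET, 183 to 216 CPM in KO and 190 to 229 CPM in WT.

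**Figure D4:**
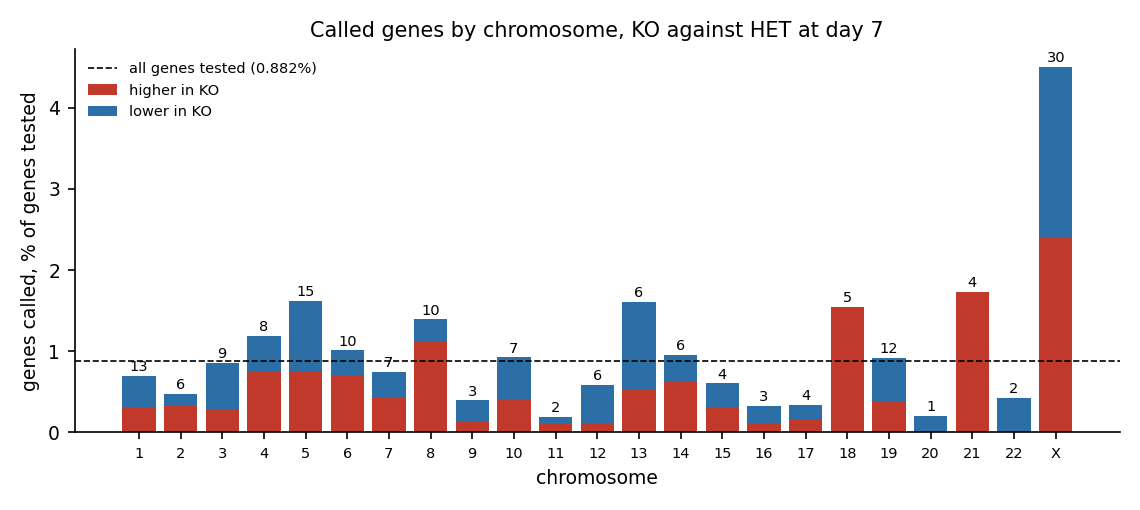
Called genes as a percentage of the genes tested on each chromosome, KO against HET at day 7, stacked into higher in KO (red) and lower in KO (blue), with the number called above each bar and the share over all genes (0.882%) as a dashed line. The X chromosome, at 4.5%, has the highest bar.

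Called genes also lay side by side. Of the 173 with a known position, 35 formed 26 pairs less than 100 kb apart, and in all 26 pairs both genes differed in the same direction. In 13 of the pairs the genes overlap and may share reads. Several pairs have a gene in common, as in the protocadherin alpha cluster, so the pairs are not independent. How often neighbouring genes that were not called go the same way was not counted. Pairs without overlap include SLITRK5 with MIR4500HG, NLRP2 with the platelet collagen receptor gene GP6, OTUD5 with TFE3, XIAP with STAG2, and MORF4L2 with TCEAL3. NLRP2 and GP6 differed by -13.09 and -3.78 on the log2 scale, and XIAP and STAG2 by -1.07 and -1.27. XIAP lost its call without any one of 7 of the 8 libraries, with an adjusted p of up to 0.236, without KO replicate 3. The noncoding TMEM161B-DT was at 39.6, 51.0, 54.9 and 49.9 CPM in HET and 25.9, 15.5, 17.9 and 22.9 CPM in KO (-1.29 ± 0.20, adjusted p = 0.0194; up to 0.114, without KO replicate 3), and TMEM161B, which overlaps it, fell by 1.2 (adjusted p = 0.0283; up to 0.163, without KO replicate 3).

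Part of the day 7 difference was already measured in the KO and HET libraries of earlier days, which are other libraries of the same lines. KO and HET differed in 151 of 19287 genes at day 0 (0.783%) and in 457 of 20230 at day 3 (2.26%). Of the 180 genes, 76 were called in the same direction at day 0 (42.2% of the day 7 list and 50.3% of the day 0 list) and 77 at day 3 (42.8% and 16.8%). None was called in the opposite direction at either day. Called or not, 132 of the 151 tested at day 0 and 139 of the 164 tested at day 3 had the same sign as at day 7. Called at both earlier days were 55, and at neither 82, where 29 of the 180 were not tested at day 0 and 16 not at day 3. The shares depended on HET replicate 1. Without it, 102 of 428 genes were called in the same direction at day 0 (23.8%) and 112 at day 3 (26.2%), and 287 at neither.

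**Figure D5:**
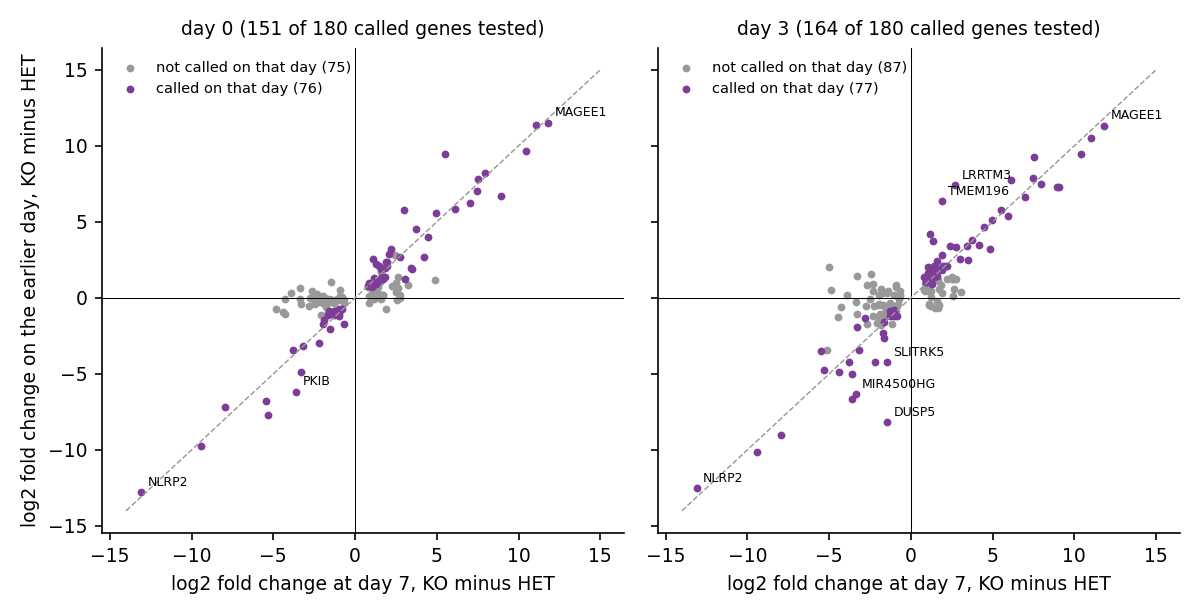
Log2 fold change, KO minus HET, of the genes called at day 7 (x axis) against that of the same genes at day 0 (left, 151 tested) and day 3 (right, 164 tested), with purple points called on the earlier day too. The 76 and 77 purple points lie at the lower left and upper right, most of them along the dashed line of equal change. Grey points were not called on the earlier day. Of all points, 132 of 151 at day 0 and 139 of 164 at day 3 had the same sign as at day 7.

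Whether a difference itself changed with time was tested as an interaction over the 24 KO and HET libraries. Between day 0 and day 7 the KO minus HET difference changed in 17 of 23655 genes (0.0719%), upwards in 1 and downwards in 16, and 9 of the 17 were also called at day 7. The upward one was GRIN3A, at 1.75 and 1.72 CPM in HET and KO at day 0 and 1.38 and 9.60 CPM at day 7 (interaction 2.77, adjusted p = 0.00894). GPX8 was at 74.4 and 71 CPM at day 0 and 5.81 and 0.309 CPM at day 7 (interaction -4.18, adjusted p = 0.00262). RYR1 was at 16.8 and 21.4 CPM at day 0 and 137 and 9.46 CPM at day 7 (interaction -4.25, adjusted p = 0.0282; up to 0.1, without KO replicate 3). In GRIN3A and GPX8 the interaction was called whichever day 7 library was left out, while the count of 17 ranged from 6 without KO replicate 2 to 77 without HET replicate 3.

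Between day 3 and day 7 the difference changed in 356 genes (1.5%), upwards in 86 and downwards in 270, of which 31 were called at day 7. The count was 185 to 193 without KO replicate 1, 2 or 3, 223 without HET replicate 4 and 626 without HET replicate 3. DUSP5, a phosphatase that acts on ERK, was at 658 CPM in HET and 2.24 CPM in KO at day 3 and at 12.8 and 4.84 CPM at day 7 (interaction 6.70, adjusted p = 3.49e-08), with WT at 1.27 to 2.46 CPM at day 3. SLITRK5, a neuronal transmembrane protein that shapes synapses, was at 15.5 and 31.9 CPM at day 0, 304 and 16.4 CPM at day 3 and 99.6 and 37.5 CPM at day 7 (interaction against day 3, 2.74, adjusted p = 2.68e-06). Its neighbour MIR4500HG was at 6.96, 8.81, 5.29 and 10.7 CPM in HET at day 7 and 0.730, 0.701, 0.679 and 1.03 CPM in KO (-3.38 ± 0.30, adjusted p = 0.00168). LRRTM3 was at 0.199 CPM in HET and 35.5 CPM in KO at day 3 and at 1.12 and 7.72 CPM at day 7 (interaction -4.70, adjusted p = 0.00138). OPRK1, the kappa opioid receptor, was at 0.364 and 35.6 CPM at day 3 and at 18.5 and 16.2 CPM at day 7 (interaction -6.93, adjusted p = 2.68e-06), so the day 3 gap was gone. The interactions of DUSP5, SLITRK5, LRRTM3 and OPRK1 were called whichever day 7 library was left out, and DUSP5, SLITRK5 and OPRK1 were picked after their values were seen.

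The last comparison asked whether KO and HET neurons stood at different points of the day 3 to day 7 course of WT cells. In WT, 23.3% of 22268 genes were higher and 22.9% lower at day 7 than at day 3. On a scale where the WT day 3 mean is 0 and the WT day 7 mean is 1, over 3552 genes, HET libraries lay at 1.141 ± 0.035 and KO libraries at 1.161 ± 0.014 (SD, n = 4 each). The difference of 0.02 was within the spread (exact two-sided permutation test over 70 splits, p = 0.343). Of the genes called higher in KO, 36 of 78 tested in WT rose from day 3 to day 7 (46.2%) and 13 fell (16.7%). Of those called lower, 30 of 77 rose (39%) and 17 fell (22.1%), and over all tested genes the shares were 25.6% and 22.4%.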

How the data were processed

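RNA-seq was measured in 36 libraries, of which the 8 KO and HET libraries of day 7 enter the KO against HET fit. Per the submitters' processing notes, the tools were cutadapt 4.8, FastQC 0.11.8, MultiQC 1.20, STAR 2.7.8a and RSEM 1.3.3, with GRCh38. The gene annotation and the use of strand are not given in the sources used here. Per the labels' protocols, libraries were rRNA-depleted and read as 151 bp pairs. The expected counts deposited by the authors hold whole numbers for 62714 features (62710 genes and 4 reporter sequences), and the TPM values deposited by the authors served 1 alternative. Reporters stayed out of library sizes. Positions are from GENCODE 29 (GRCh38), which matched 58274 genes.

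Counts were tested with edgeR 4.0.16 (R 4.3.3) by glmQLFit and glmQLFTest after filterByExpr and TMM scaling, with Benjamini-Hochberg adjustment over all genes tested and a threshold of 0.05. SE is the absolute log2 difference over the root of F. A fold against a group at 0 is a lower bound set at 3 counts per library, and intervals cover counting error only. Alternatives used DESeq2 1.42.0, limma 3.58.1 on log2(TPM + 1), other scalings, filters and libraries, and each replicate left out. Steps were tested on simulated data.

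The text names RAI1 and its complex partners, the 12 largest rises and falls among called coding genes with a mean of at least 5 CPM in the higher group, no overlap and a symbol of their own, the 2 largest in each direction among other genes, and up to 3 called members per list with a mean of at least 1 CPM. The libraries compared, the lists and this rule were chosen with earlier results of these data known. A pair of genes that this rule names is not reported here. The position on the WT course is the slope of a library's deviation from the WT day 3 mean, on log2(CPM + 1), over genes with a WT difference of at least 1.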

Additional observations from a re-analysis of the deposited data

Results flagged for a closer look

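In 80 groups of 4 libraries checked for a single value far from the other 3, 12 held one, where chance gives about 1 in 20 groups. HET replicate 1 was the outlying library 4 times: RYR1 at 361 CPM (others 30.9 to 86.5), HSPA1A at 12.4 CPM (4.29 to 5.38), PKIB at 14.1 CPM (24.5 to 25.9) and PHF14 at 93.7 CPM (129 to 136). HET replicate 3 stood out for UCHL1 at 422 CPM (307 to 317) and LAMB2 at 9.62 CPM (25.8 to 27.2), and HET replicate 2 for ADCYAP1 at 25.9 CPM (22.8 to 23.2). KO replicate 4 stood out for CTHRC1 at 11 CPM (2.95 to 4.03), LDB3 at 21.7 CPM (10.9 to 12.1), MIR4500HG at 1.03 CPM (0.679 to 0.73) and MAGEE1 at 32.2 CPM (41.1 to 42.7), and KO replicate 3 for HSPA1A at 94.1 CPM (69.7 to 73.5). The KO minus HET difference differed between day 7 and day 0 in 17 genes and between day 7 and day 3 in 356, by edgeR's interaction test.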

How the results depend on the processing

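Among the named genes no direction of a called value reversed under any alternative run. For the other called genes this was not checked under every alternative. Against 180 genes called in KO against HET, DESeq2's size factors gave 177, library size alone 154 and leaving out the small structural RNAs 174. The count moved to 876 with DESeq2's Wald test, 45 with limma on log2(TPM + 1), 289 without a filter, 72 with a test against a fold of 1.5, 305 with all 12 day 7 libraries, 951 with all 36, and 1947 when each library's share of small structural RNAs entered the fit. Leaving out 1 library gave 58 to 428. The change since day 0 was called in 17 genes, in 41 with all 36 libraries and in 6 to 77 without 1 library. The change since day 3 was called in 356 genes, in 62 with limma on TPM, in 564 with all 36 libraries and in 185 to 626 without 1 library. The causes were not tested. Deviations of same-numbered KO and HET libraries correlated at -0.027, 0.328, 0.142 and 0.418, and those of other pairs at -0.472 to 0.268. Since 1 of 4 was not over 0.1, the numbers were not taken as pairing. With the replicate block 117 genes were called, 82 of them among the 180, the interactions gave 16 and 411, RAI1 differed by 0.21, and the position on the WT course by 0.02 (exact p = 0.25). RAI1 was not called under any alternative, with differences of 0.05 to 0.32 and, on log2(TPM + 1), -0.13 (adjusted p = 0.932). The position on the WT course differed by 0.009 to 0.058 (exact p = 0.2 to 0.743, where 3 libraries against 4 cannot go below 0.0571). Of 38 named called genes, 18 kept their call whichever library was left out. In 21 called genes 1 group held at most 3 counts, so their fitted fold changes are not bounds.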

Other observations

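Several called genes outside the naming rule, picked after their values were seen, kept small spreads within both groups. CBLN2, a secreted synapse organiser, was at 2.11, 2.19, 2.62 and 1.34 CPM in HET and 10.5, 10.1, 8.74 and 6.61 CPM in KO (log2 difference 2.06 ± 0.25 SE, adjusted p = 0.00719 by edgeR's quasi-likelihood test). The zinc finger gene ZNF677 was at 11.6, 15.6, 15.4 and 12.9 CPM in HET and 54.7, 46.6, 41.2 and 34 CPM in KO (1.62 ± 0.18, adjusted p = 0.00363), with WT at 1.42 to 4.16 CPM. LIPA, the lysosomal acid lipase, was at 53.5, 60.4, 59.7 and 52.4 CPM in HET and 25.9, 26.4, 22 and 20.1 CPM in KO (-1.31 ± 0.13, adjusted p = 0.00228). PCSK6, a proprotein convertase, was at 17.5, 19.7, 29.1 and 27.1 CPM in HET and 8.3, 7.27, 7.78 and 6.58 CPM in KO (-1.69 ± 0.19, adjusted p = 0.0045). In each of these 4 genes the call was kept whichever library was left out, and the groups did not overlap, as in all 180 called genes.

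The histone gene H3C6 was at 8.17, 6.91, 8.83 and 8.74 CPM in HET and 33.2, 26.8, 29.2 and 19.6 CPM in KO (1.68 ± 0.18, adjusted p = 0.00363), and it was also called whichever library was left out. WT neurons read it at 24.4 to 36.1 CPM. PTN, the growth factor pleiotrophin, was at 5.6, 10.3, 12.4 and 9.06 CPM in HET and 32.5, 34.8, 28.5 and 20.4 CPM in KO (1.59 ± 0.25, adjusted p = 0.024; up to 0.0961, without KO replicate 2). DSCAM, a neuronal recognition molecule, was at 3.39, 2.75, 7.57 and 5.26 CPM in HET and 17.3, 14.7, 23.6 and 16.6 CPM in KO (1.88 ± 0.32, adjusted p = 0.0312; up to 0.132, without KO replicate 3). TNFRSF19, a receptor of the TNF family, was at 135, 211, 83.8 and 136 CPM in HET and 27.1, 47.9, 36.3 and 56.6 CPM in KO (-1.80 ± 0.32, adjusted p = 0.0359; up to 0.179, without KO replicate 3), with WT at 288 to 351 CPM.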
